A study of Mus musculus with 8 samples.

Results

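The MBNL genes and 6 further RNA-binding regulators of splicing that epithelial cells use were followed in sorted mouse Paneth cells: Mbnl1, Mbnl2, Mbnl3, Celf1, Rbfox2, Esrp1, Esrp2, Ptbp1 and Rbm47. They are 9 of the 55414 genes in the count table, found by matching Ensembl gene IDs to their symbols in GENCODE, and all 9 passed the filter on low counts. The genes were selected on measured values, namely log2 fold changes and CPM of TG against WT from these same libraries that were already known, so that their differences between the groups are given as a description, without p-values, and the count that passed the edgeR threshold is printed only beside the share of all genes.

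Paneth cells secrete antimicrobial peptides from the crypt base of the small intestine, and they had been purified by FACS for bulk RNA sequencing. TG denotes 4 libraries of purified Paneth cells from mice of genotype DT TG, a transgene with which Paneth cells make diphtheria toxin. WT denotes 4 libraries of purified Paneth cells from wild type mice. The study's methods name C57BL/6J mice for its Paneth cell sorts. The methods say that the study's datasets hold males and females, but the sex of each sample, the age of the mice, the promoter of the transgene and the number of founder lines are not stated in the labels or the methods. The design asked what expression profile remains in purified cells once mature Paneth cells have been depleted, and no label says whether the sorted TG cells had themselves made toxin. In bulk RNA, fewer cells of a type and less RNA per cell cannot be told apart. The labels call the libraries replicates without naming an animal for each, and the study describes its Paneth cell samples as coming from individual mice. The p-values below measure the spread between these samples.

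Total counts were 13107397 to 16218434 per library. Of 10 Paneth cell markers, all were tested, and their summed level was 371500 to 455900 CPM (counts scaled to a common library total) in TG and 352500 to 531700 CPM in WT. The sum is mostly Lyz1 and alpha-defensin counts. In edgeR 3 of the 10 (Mptx2, Mmp7 and Ang4) were lower in TG, beside 9.65% of all genes tested. Their log2 fold changes were -1.35, -0.59 and -0.57, and 9 of the 10 had a fitted value below 0. Enterocyte markers stood far below this, at 478.2 to 670.6 CPM summed over 11 genes in TG and 468.2 to 535.6 CPM in WT, most of it Vil1, with 346.7 CPM in TG and 392.6 CPM in WT. In edgeR 5 of the 11 (Alpi, Apob, Mttp, Apoa4 and Slc5a1) were higher in TG, beside 8.26% of all genes tested. Of the 11, 10 had a fitted value above 0, and the median log2 fold change was 1.56, the value of Fabp1. Alpi, Apoa4, Fabp1 and Lct reached the filter on low counts only with the TG libraries, where their means were higher. Alpi, for example, had 37 to 113 reads per TG library and 4 to 24 per WT library. The values of these genes are therefore a description. The 10 fibroblast, muscle and endothelial markers summed to at most 0.351 CPM in a TG library and 0.743 CPM in a WT library, and none of them could be tested. Of 6 stem cell markers, Axin2 and Slc12a2 were higher and Smoc2 was lower in TG, with log2 fold changes of 0.52, 0.40 and -0.35. Of 4 tested enteroendocrine markers Tac1 was lower, with -3.49, but it passed the filter on low counts only through the WT libraries. Of all genes tested, 17.9% passed in either direction. In edgeR, 0 of 8 goblet and 0 of 4 tested tuft cell markers passed (1 and 0 at an unadjusted p under 0.05). Among 10 immune markers, Lyz2, a close paralog of Lyz1, made up nearly the whole level, at 8.31 to 29.2 CPM in TG and 11.7 to 18.0 CPM in WT, and Cd3g, Adgre1, Csf1r and Nkg7 were among those at 0. Counts of 4 Y-linked genes were 0 in replicates 1 and 2 of both groups and summed to 897 to 1564 in replicates 3 and 4, which splits each group evenly.

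These regulators decide which exons of a pre-mRNA are kept. MBNL proteins bind YGCY motifs with CCCH zinc fingers and act against CELF1 on many of the same exons, with the balance shifting from CELF to MBNL as tissues mature. RBFOX2 binds GCAUG. ESRP1 and ESRP2 hold the epithelial forms of transcripts such as Fgfr2 and Cd44. PTBP1 mostly represses exons by binding pyrimidine tracts, and RBM47 is an epithelial splicing regulator that also serves as a partner of the APOBEC1 RNA editing enzyme. The position of the bound motif relative to an exon often decides whether the exon is kept or skipped.

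The sequences of Mbnl1 and Mbnl2 are shown because the balance of these paralogs is the main feature of the values, and the gene counts rest on reads being told apart between them. The first coding exon encodes the start of the first pair of zinc fingers, and a CCCH pattern lay at residues 19 to 38 of its translation in both genes. In GRCm39 this exon is chr3:60437052-60437225 on the plus strand in Mbnl1 and chr14:120562651-120562824 on the plus strand in Mbnl2. Each is 174 bases long, 128 bases are identical, and capitals mark the 46 that differ between them.
Mbnl1 first coding exon: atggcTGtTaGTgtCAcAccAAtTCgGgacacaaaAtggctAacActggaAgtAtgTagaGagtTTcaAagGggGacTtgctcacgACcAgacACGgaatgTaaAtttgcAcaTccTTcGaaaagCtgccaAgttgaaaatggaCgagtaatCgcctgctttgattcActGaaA
Mbnl2 first coding exon: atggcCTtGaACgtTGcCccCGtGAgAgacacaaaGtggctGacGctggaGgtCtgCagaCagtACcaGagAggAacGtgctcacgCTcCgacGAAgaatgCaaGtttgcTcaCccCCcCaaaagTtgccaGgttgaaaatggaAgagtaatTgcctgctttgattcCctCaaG

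Both genes also carry an alternative exon of 54 bases that is known to steer MBNL proteins to the nucleus and whose inclusion MBNL proteins control themselves. It lies at chr3:60522104-60522157 (plus strand) in Mbnl1 and at chr14:120633124-120633177 (plus strand) in Mbnl2. A coding exon of a set length directly followed it in 4 of 35 annotated coding transcripts of Mbnl1 and 15 of 53 of Mbnl2. Any other transcripts that hold it were not counted. The exons share 46 bases, or 85.2%, and capitals mark the 8 that differ.
Mbnl1 alternative exon: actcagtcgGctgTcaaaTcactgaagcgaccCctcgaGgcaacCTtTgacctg
Mbnl2 alternative exon: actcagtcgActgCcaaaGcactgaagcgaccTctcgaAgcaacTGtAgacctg
Counts per gene pool the transcripts with and without this exon, so nothing below measures its inclusion, nor that of any other exon.

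All windows of 75 bases along the annotated transcripts were searched in the transcripts of every other gene. No sense-strand window was shared for 7 of the 9 genes, Mbnl1, Mbnl2 and Mbnl3 among them. Ptbp1 shared 1.47% of its windows, with Gm46400 and Gm4900, and Rbm47 shared 1.06%. With either strand allowed, Esrp2 shared 42.4%. Its exons overlap 2626 bases of Nfatc3 and 1129 bases of 1810019D21Rik on the opposite strand, and these genes had 5665 and 2589 counts. Because the strand setting used for counting is not given, the value of Esrp2 is uncertain. Either-strand shares of the other genes were 10.8% for Ptbp1 and at most 4.37% elsewhere.

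The 9 genes moved little as a group. Of them, 2 (Mbnl1 and Rbfox2) passed an adjusted p of 0.05 in the edgeR fit, both higher in TG, and 7 did not, beside 17.9% of all 11929 genes tested that passed in either direction, 8.26% that were higher in TG and 9.65% that were lower. Their median log2 fold change (TG over WT) was -0.07, against 0.01 over all genes tested. The other 7 genes had log2 fold changes between -0.15 and 0.06. Levels of single libraries are given below in CPM scaled with TMM factors, which adjust library sizes for composition.

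**Figure D1:**
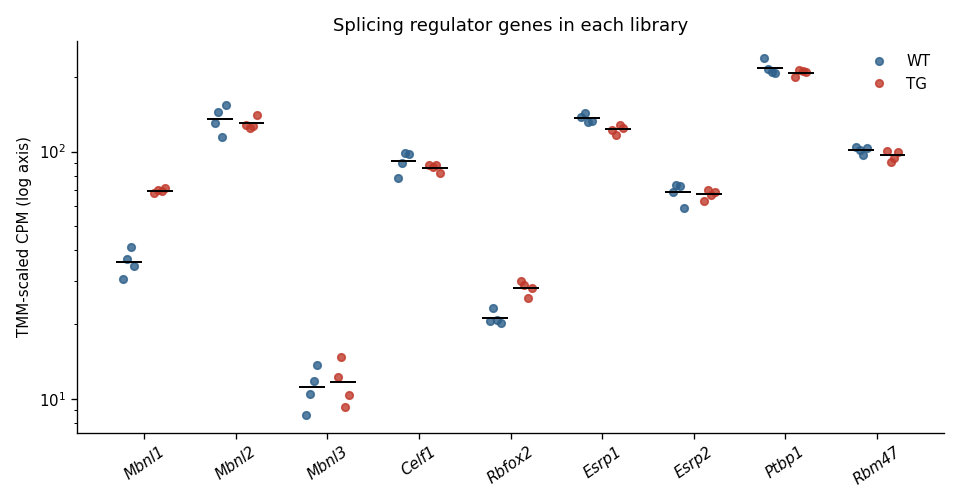
TMM-scaled CPM (log axis) of the 9 genes in each of the 4 WT (blue) and 4 TG (red) libraries, with the mean of each group as a line. Mbnl1 sits at 68.0 to 71.0 CPM in TG and 30.5 to 41.1 CPM in WT, while the WT and TG points of Mbnl2, Mbnl3, Celf1, Esrp2, Ptbp1 and Rbm47 overlap.

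Mbnl1 (ENSMUSG00000027763, chromosome 3, 60380102 to 60537183, plus strand), the most widely studied MBNL gene and the factor that expanded CUG repeats sequester in myotonic dystrophy, was about 2 times as abundant in TG. The TG libraries had 68.0, 69.7, 69.1 and 71.0 CPM (replicates 1 to 4), and the WT libraries had 30.5, 36.7, 41.1 and 34.6 CPM. Every TG library was far above every WT library. The means were 69.4 ± 1.25 and 35.7 ± 4.42 CPM (SD, n = 4 each), from 935 to 1225 reads per TG library and 382 to 615 per WT library. Its log2 fold change was 0.96 ± 0.09 (SE), a 1.94-fold difference. In TMM-scaled CPM the TG libraries varied least for Mbnl1 among the 9 genes, with a coefficient of variation of 1.81%. This is below the counting noise of such read numbers, so it is not read as a trait of the gene. Scaled by total counts, the TG libraries ran from 68.3 to 75.6 CPM for Mbnl1 and, relatively more narrowly, from 131.9 to 138.9 CPM for Mbnl2. Its log2 fold change was 1.03 in the 4 libraries that lacked Y-linked counts and 0.89 in the 4 that had them.

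Mbnl2 (ENSMUSG00000022139, chromosome 14, 120512932 to 120669110, plus strand), the paralog best known from brain, had 127.7, 124.6, 127.0 and 140.6 CPM in TG and 130.8, 144.3, 114.7 and 154.4 CPM in WT. The WT libraries spanned the whole range of the TG libraries. The means were 130.0 ± 7.21 and 136.1 ± 17.2 CPM (SD, n = 4 each), with a log2 fold change of -0.07 ± 0.10 (SE).

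Mbnl3 (ENSMUSG00000036109, chromosome X, 50202383 to 50295478, minus strand), a paralog linked to undifferentiated muscle and placenta, was low in every library. The TG libraries had 12.2, 14.8, 9.30 and 10.3 CPM, and the WT libraries had 8.62, 10.5, 11.8 and 13.7 CPM. The groups overlapped over most of their range, and the log2 fold change was 0.06 ± 0.17 (SE). With 108 to 210 reads per library, Mbnl3 was the gene with the fewest counts and the widest relative spread of the 9, with a coefficient of variation of 20.6% in TG and 19.1% in WT.

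Within the MBNL genes the make-up of the counts differed with Mbnl1. Mbnl1 gave 32.7, 33.3, 33.6 and 32.0% of the counts of the 3 genes in TG, and 18.0, 19.1, 24.5 and 17.1% in WT. WT replicate 3 was the highest of its group and still below all TG libraries. The mean share was 32.9 ± 0.73% in TG, against 19.7 ± 3.35% in the WT libraries (SD, n = 4 each). Mbnl2 made up 61.6 ± 1.54% of them in TG and 74.2 ± 3.93% in WT, and Mbnl3 5.53 ± 1.19% and 6.09 ± 0.96%. Counts of Mbnl2 exceeded those of Mbnl1 by a ratio of 1.87 ± 0.081 in TG and 3.87 ± 0.75 in WT. These shares are ratios within a library and do not depend on how libraries are scaled, and they use counts that are not divided by length. Summed over the 3 genes, the level was 211.1 ± 7.41 CPM in TG and 182.9 ± 17.0 CPM in WT. The shares were computed from the contrast on which Mbnl1 was selected, so they are a description too.

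**Figure D2:**
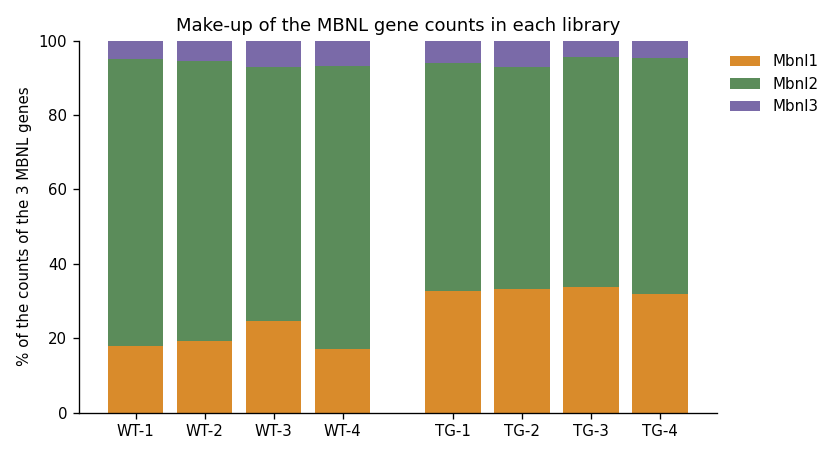
Percentage of the summed counts of Mbnl1, Mbnl2 and Mbnl3 taken by each gene in each WT and TG library, as stacked bars from 0 to 100%. The Mbnl1 part is 32.0 to 33.6% in the TG libraries and 17.1 to 24.5% in the WT libraries, and the Mbnl3 part is small in all 8.

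Celf1 (ENSMUSG00000005506, chromosome 2, 90770584 to 90849842, plus strand), the factor that acts against MBNL proteins on many muscle exons, had 88.2, 86.3, 88.4 and 81.9 CPM in TG. In WT it had 78.5, 89.9, 98.7 and 98.1 CPM. All TG libraries lay inside the WT range, and the log2 fold change was -0.08 ± 0.09 (SE). Its own paralogs Celf3, Celf4, Celf5 and Celf6 had 32, 12, 21 and 1 counts over all 8 libraries and were not tested. Celf2, with 92 counts, was tested and did not pass.

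Rbfox2 (ENSMUSG00000033565, chromosome 15, 76963189 to 77191303, minus strand) was the other gene higher in TG, by a smaller step than Mbnl1. The TG libraries had 30.0, 28.8, 25.7 and 28.2 CPM, and the WT libraries had 20.7, 23.4, 20.9 and 20.2 CPM. The ranges lay close but apart. The means were 28.2 ± 1.84 and 21.3 ± 1.42 CPM (SD, n = 4 each), and the log2 fold change was 0.40 ± 0.09 (SE), or 1.32-fold. Rbfox2 was the only RBFOX gene measured at a usable level, since Rbfox1 had 0 counts and Rbfox3 had 2 over all libraries. The higher levels of Mbnl1 and Rbfox2 in TG stood beside higher levels of Axin2, Slc12a2 and 5 of the 11 enterocyte markers. The summed enterocyte level overlapped between the groups. Mptx2, Mmp7, Ang4, Smoc2 and Tac1 were lower, as given above. Among these markers, Alpi, Apoa4 and Tac1 passed the filter on low counts only through the group where they were higher. The part of cell make-up in the levels of Mbnl1 and Rbfox2 was not tested.

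Mbnl1 and Rbfox2 were thus the genes whose TG range lay above the WT range, as for 10.0% of all genes tested. For 1 gene, Esrp1, the TG range lay below the WT range, as for 12.0% of all genes tested. Scaled by total counts without TMM factors, Mbnl1 and Rbfox2 stayed apart, at 68.3 to 75.6 against 25.8 to 45.2 CPM and 27.1 to 31.3 against 17.5 to 23.8 CPM. Esrp1 then overlapped, at 119.5 to 140.5 CPM in TG and 116.9 to 146.2 CPM in WT.

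Esrp1 (ENSMUSG00000040728, chromosome 4, 11331933 to 11386875, minus strand) and Esrp2 are the paired epithelial regulators that are lost when epithelial cells turn mesenchymal. Esrp1 had 122.3, 116.7, 128.4 and 124.2 CPM in TG and 138.3, 143.6, 132.0 and 133.0 CPM in WT. The distance between the groups was small, with a log2 fold change of -0.15 ± 0.08 (SE). Esrp2 (ENSMUSG00000084128, chromosome 8, 106853859 to 106864027, minus strand) had 63.2, 69.7, 67.0 and 68.7 CPM in TG and 68.6, 73.5, 72.3 and 59.0 CPM in WT. WT replicate 4 was the lowest of all 8 and WT replicate 2 the highest, and the log2 fold change was -0.03 ± 0.09 (SE). Esrp1 gave 64.7 ± 1.51% of the counts of the pair in TG, against 66.7 ± 1.94% in the WT libraries (SD, n = 4 each).

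Ptbp1 (ENSMUSG00000006498, chromosome 10, 79690261 to 79700605, plus strand), the most abundant of the 9 genes, had 199.6, 213.0, 211.0 and 210.4 CPM in TG and 238.2, 215.0, 210.7 and 208.5 CPM in WT. WT replicate 1 stood above the other libraries, which lay close together, and the log2 fold change was -0.07 ± 0.08 (SE). The paralogs Ptbp2, a neural form that PTBP1 itself represses, and Ptbp3 had means of 6.60 ± 0.59 and 135.3 ± 14.5 CPM in TG and 4.74 ± 0.95 and 119.6 ± 4.13 CPM in WT (SD, n = 4 each). Neither passed the test, with edgeR adjusted p of 0.0730 and 0.184.

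Rbm47 (ENSMUSG00000070780, chromosome 5, 66173892 to 66330461, minus strand) had 100.7, 91.0, 94.5 and 99.6 CPM in TG and 104.8, 101.4, 97.0 and 103.4 CPM in WT. The groups overlapped, and the log2 fold change was -0.08 ± 0.08 (SE). Its partners in C-to-U editing of Apob mRNA behaved unequally. A1cf, the RNA-binding cofactor, had 13.8, 17.9, 13.0 and 11.6 CPM in TG and 4.87, 7.65, 10.2 and 10.3 CPM in WT, so that the lowest TG library was close to the highest WT library. It was higher in TG, with a log2 fold change of 0.76 ± 0.21 (SE) and an edgeR adjusted p of 0.0264, and 5 of the 8 leave-one-out fits called it. The log2 fold change was 1.32 in the libraries without Y-linked counts and 0.27 in those with them, where it did not pass. Apobec1, the enzyme, had 8.80 ± 1.94 CPM in TG and 9.70 ± 1.06 CPM in WT (SD, n = 4 each), with an edgeR adjusted p of 0.579. Syncrip, an inhibitor of the complex, did not pass either.

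**Figure D3:**
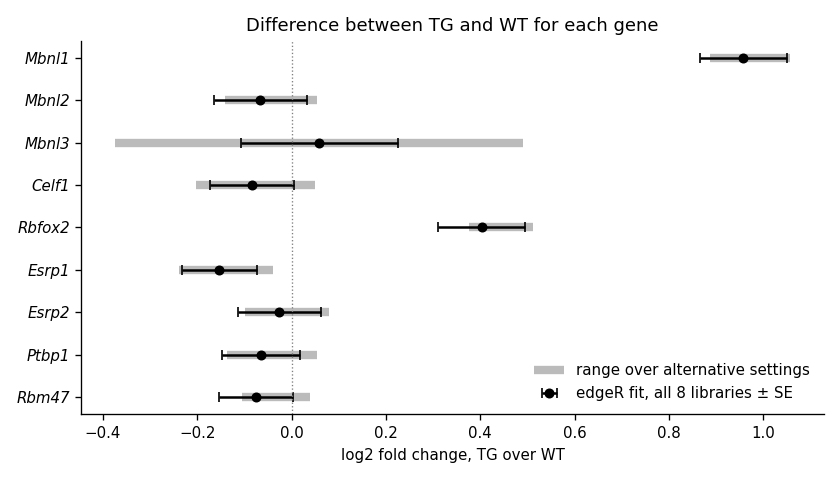
Log2 fold change of TG over WT for the 9 genes. Black points and bars are the edgeR fit over all 8 libraries with its SE, grey bars the range over the 18 alternative settings, which runs from 0.89 to 1.06 for Mbnl1 and from 0.38 to 0.51 for Rbfox2 and includes 0 for Mbnl2, Mbnl3, Celf1, Esrp2, Ptbp1 and Rbm47.

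The order of the 9 genes by level per length was compared with ratios within libraries, over all 8 libraries, so the place of Mbnl1 mixes its levels in both groups. In TMM-scaled CPM per kb of annotated exon, averaged over the 8 libraries, Ptbp1 led with 44.3, followed by Esrp1 (16.6), Rbm47 (11.4), Celf1 (10.2), Esrp2 (8.63), Mbnl2 (8.36), Rbfox2 (2.91), Mbnl1 (2.59) and Mbnl3 (0.865). With this length the epithelial regulators Esrp1 and Rbm47 ranked above every MBNL and RBFOX gene. Of the 8 neighbouring pairs, 6 differed (exact two-sided sign-flip permutation test of the log2 ratio over 8 libraries, adjusted p of 0.0125 to 0.0208). Here 0.0078 is the smallest raw p the design allows, and a pair reaches it whenever the same gene is higher in all 8 libraries, whatever the spread. The genes were selected with CPM of these libraries known, and the pairs were set by ranking the means of the same libraries. The p-values thus reflect how uniformly a sign held over TG and WT libraries together and are no independent test of the order. Esrp2 and Mbnl2 could not be separated, with a mean log2 ratio of 0.05 ± 0.20 (SD over 8 libraries) and an adjusted p of 0.523 in the exact permutation test. Rbfox2 and Mbnl1 could not over all libraries, with a mean log2 ratio of 0.23 ± 0.33 (SD over 8 libraries) and an adjusted p of 0.125 in the exact permutation test, and Rbfox2 was the higher in 5 of 8 libraries. Their order turned with the group. Rbfox2 was above Mbnl1 in all 4 WT libraries, with means of 2.50 ± 0.17 and 1.76 ± 0.22 CPM per kb, and below it in 3 of 4 TG libraries, with means of 3.31 ± 0.22 and 3.42 ± 0.06 CPM per kb (SD, n = 4 each).

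The order depended on which length was used, mostly in the places of the MBNL genes. Divided by the longest annotated transcript, Mbnl2 moved up to rank 3, above Rbm47, and Mbnl1 passed Rbfox2, and 7 of the 8 neighbouring pairs differed. The pair that did not was Esrp2 and Mbnl1 (exact two-sided sign-flip permutation test, adjusted p = 0.219). Mbnl1 was above Esrp2 in every TG library, with means of 11.3 ± 0.20 and 9.53 ± 0.40 CPM per kb, and below it in every WT library, with means of 5.81 ± 0.72 and 9.70 ± 0.93 CPM per kb (SD, n = 4 each). Ptbp1 and Esrp1 led and Mbnl3 came last with both lengths.

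**Figure D4:**
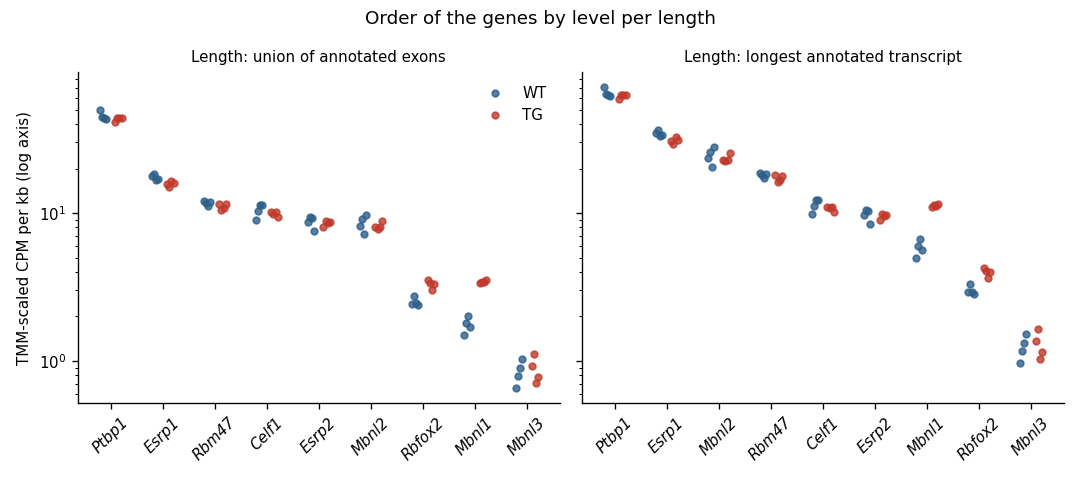
TMM-scaled CPM per kb (log axis) of the 9 genes in each WT (blue) and TG (red) library, ordered by the mean over 8 libraries, with the union of annotated exons as length on the left and the longest annotated transcript on the right. Ptbp1 and Esrp1 are highest and Mbnl3 is lowest in both panels, while the places of Mbnl1 and Mbnl2 change.

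A further comparison that the choice of genes did not use set the 4 libraries with Y-linked counts against the 4 without, with the group as a term. It coincides with replicates 3 and 4 against 1 and 2, so that sex and any difference between these sets of replicates cannot be told apart. In edgeR, 0 of the 9 genes passed, beside 0.176% of all genes tested, and 0 were under an unadjusted p of 0.05. DESeq2 also called 0 of them. Log2 differences ran from -0.12 for Rbfox2 to 0.10 for Mbnl1, and edgeR adjusted p from 0.959 to 0.999.

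For each MBNL gene, the 3 genes of the 8121 candidates (mean log2 CPM of at least 3) whose log2 CPM had the highest Pearson r over the 8 libraries were listed. They were Stx17 (0.979), Zfp395 (0.979) and Tmem94 (0.975) for Mbnl1. For Mbnl2 they were Pacsin2 (0.982), Acbd5 (0.978) and Klhdc10 (0.936). For Mbnl3 they were Ccser2 (0.964), Thap2 (0.963) and Wdr82 (0.954). These r values come from 8 points that share libraries, depth and, for Mbnl1, the difference between the groups, and they are descriptions.

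Further lists of 168 genes, of which 133 were tested, held splicing factors and, beside them, editing partners of Rbm47, epithelial state genes and genes with regulated exons. In edgeR 17 of these, or 12.8%, passed, 3 higher and 14 lower in TG, beside 17.9% of all genes tested, and the median log2 fold change was -0.04. The calls were lost in part when libraries were left out, so that 2 passed without TG replicate 1 and 3 without TG replicate 2. Under scaling by total counts alone 4 passed, 3 of them higher.

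Core spliceosome genes accounted for 7 of the 14 lower calls, among them Prpf4, Dhx15, Snrpd3 and Sf3b3, and for 40 of the 133 tested genes. Of these 40, 7 were called lower, beside 9.65% of all genes tested, 0 were called higher, 37 had a fitted value below 0, and the median log2 fold change was -0.19. Prpf4, a component of the U4/U6 snRNP, had 18.2, 17.2, 17.2 and 17.6 CPM in TG and 28.4, 24.8, 26.8 and 23.7 CPM in WT. All TG libraries were below all WT libraries, with a log2 fold change of -0.56 ± 0.09 (SE) and an edgeR adjusted p of 0.00181, and all 8 leave-one-out fits called it. Dhx15, the helicase that takes spent spliceosomes apart, averaged 95.8 ± 7.28 CPM in TG against 119.4 ± 2.98 CPM in WT (SD, n = 4 each), with a log2 fold change of -0.32 and an edgeR adjusted p of 0.0176. Scaled by total counts, 1 core gene (Prpf4) passed, and 26 of 40 had a fitted value below 0, with a median of -0.08 where that of all genes moved to 0.12. Without TG replicate 1, and likewise without TG replicate 2, 1 core gene passed. Leave-one-out fits called Dhx15 in 6 of 8, Snrpd3 in 3 and Sf3b3 in 2.

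Among the factors that work in the same layer as the 9 genes, 28 tissue-restricted or signal-dependent regulators were tested. Of these, 1 was called higher and 3 lower, beside 8.26% and 9.65% of all genes tested. Raver2, a ribonucleoprotein gene whose product binds PTBP1, was higher in TG at a low level. It had 2.62, 2.32, 1.80 and 1.44 CPM in TG and 0.319, 0.417, 0.535 and 0.669 CPM in WT. These ranges were apart, from 19 to 42 reads per TG library and 4 to 9 per WT library, so that Raver2 passed the filter on low counts only through the TG libraries and had to differ to be tested. The fit gave a log2 fold change of 2.06 ± 0.35 (SE) and an edgeR adjusted p of 0.00190. Fubp1, Elavl1 and Pcbp1, RNA-binding proteins with many roles beside splicing, were lower, at log2 fold changes of -0.33, -0.28 and -0.31, for which edgeR gave adjusted p of 0.0259, 0.0294 and 0.0317. They passed in 4, 5 and 2 of the 8 leave-one-out fits. For Raver2 the log2 fold change was 2.71 where Y-linked counts were absent and 1.44 where they were present, and it did not pass in the latter.

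SR proteins and hnRNPs bind exons and introns of most transcripts. Of 10 SR protein genes tested, Srsf9 alone passed, beside 17.9% of all genes tested. Its log2 fold change was -0.30, with an edgeR adjusted p of 0.0454. Of 21 hnRNP genes tested, 2 passed, beside the same 17.9%. They were Hnrnpab and Hnrnpf, at log2 fold changes of -0.33 and -0.26, for which edgeR gave adjusted p of 0.0232 and 0.0415. Leaving out single libraries ended most of these calls, with Srsf9 called in 1 of 8 fits, Hnrnpf in 1 and Hnrnpab in 6. The kinases that phosphorylate SR proteins had 0 of 8 called in edgeR, with 3 under an unadjusted p of 0.05 and 2 called by DESeq2. All 8 had a fitted value above 0, with a median log2 fold change of 0.23. That median was 0.07 without WT replicate 1 and 0.40 without WT replicate 2, where 3 were called. The kinases summed to 184.8 CPM in WT replicate 1 and 312.5 CPM in WT replicate 2, and the TG libraries lay between these, at 279.3 to 304.9 CPM. WT replicates 3 and 4, at 255.9 and 246.8 CPM, lay below every TG library.

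**Figure D5:**
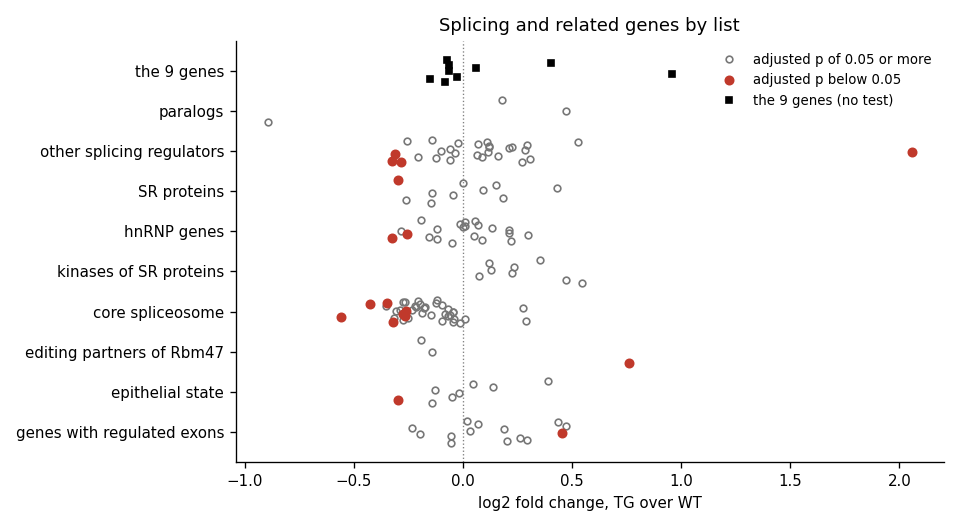
Log2 fold change of TG over WT for each tested gene, by list, with filled red points for an edgeR adjusted p below 0.05 and squares for the 9 genes. The core spliceosome points lie mostly left of 0, the 8 kinase points lie right of 0, and Raver2 at 2.06 stands alone on the right.

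Genes of the epithelial state, which ESRP genes serve, were measured beside them. Cdh1, the epithelial cadherin, had 448.2 ± 8.61 CPM in TG and 494.7 ± 25.0 CPM in WT, and Epcam 553.0 ± 14.0 and 572.0 ± 22.5 CPM (SD, n = 4 each). Neither passed, with edgeR adjusted p of 0.268 and 0.734, though the TG range of Cdh1 lay below its WT range. The mesenchymal repressors Zeb1 and Zeb2, which shut down ESRP genes, had 1 and 52 counts over all 8 libraries. Elf3, an epithelial transcription factor, was the 1 gene of 8 tested that passed, beside 17.9% of all genes tested. Its log2 fold change was -0.30, with an edgeR adjusted p of 0.0464, and it was called in 2 of the 8 leave-one-out fits.

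Of 14 tested genes with exons that the 9 regulators are known to control, 1 passed, beside 17.9% of all genes tested. This was Insr, the insulin receptor, whose exon choice responds to MBNL1 and CELF1. It had 57.3 ± 7.96 CPM in TG and 41.8 ± 6.23 CPM in WT (SD, n = 4 each). The ranges overlapped, the log2 fold change was 0.45 ± 0.12 (SE), and the edgeR adjusted p was 0.0197. Leave-one-out fits called Insr in 5 of 8. These values are totals of a gene over its isoforms.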

How the data were processed

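Paneth cells had been sorted from mouse small intestine, and libraries were prepared with a stranded mRNA kit. The authors deposited whole-number counts per gene and library for 4 TG and 4 WT samples. The submitters' processing notes list FastQC 0.12.0, STAR 2.7.0a, DESeq2 and the build mm39, without roles. The counting tool, its strand setting and the treatment of reads with several alignments are not given in the sources used. IDs were matched to GENCODE M39 on GRCm39 (54749 of 55414), which also gave positions, lengths and sequences.

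The members and lists were chosen with earlier results of these data known. The named genes were the 9 regulators, their paralogs, Apobec1, A1cf, Zeb1, Zeb2, Cdh1, Epcam, of each list up to 2 called genes with the smallest p per direction, and for each MBNL gene the 3 genes most like it. Other genes are named to spell out a count, and some listed genes are not reported here by name.

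Counts were tested with edgeR 4.0.16 in R 4.3.3 (robust quasi-likelihood fit, TMM factors, default filter by group, group as the only term, Benjamini-Hochberg adjustment over 11929 genes, threshold 0.05). CPM in the text are TMM-scaled. Standard errors were derived from each log2 fold change and its F statistic. Levels per length were compared with an exact sign-flip permutation test over the 8 libraries. Likeness used log2 CPM with a prior count of 2. No 2 replicates agreed within counting noise (chi-square per degree of freedom of at least 5.47). Alternatives were DESeq2 1.42.0, RLE factors, total counts, other filters, library sizes without alpha-defensin genes, a term for Y-linked counts, fits within libraries with and without them, a replicate block, the longest transcript as length, and each library left out in turn. Counting precision is set by the reads given beside the values.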

Additional observations from a re-analysis of the deposited data

How the results depend on the processing

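Mbnl1 and Rbfox2 were the genes of the 9 that passed in edgeR, 2 in number beside 17.9% of all genes tested, and 2 passed in 16 of 18 alternatives, leave-one-out fits included (2 to 2). The exceptions were the fits within the 4 libraries with Y-linked counts and within the 4 without them, with 1 each, beside 216 of 12024 and 1138 of 12061 genes tested, where Rbfox2 had log2 fold changes of 0.39 and 0.41 but no longer passed. The log2 fold change of Mbnl1 was 0.89 to 1.06 in all 18. Fitted values of Mbnl2, Mbnl3, Celf1, Esrp2, Ptbp1 and Rbm47 changed sign in some alternatives, and that of Esrp1 was -0.24 to -0.04. Total counts without factors shifted the median over all genes tested from 0.01 to 0.12 on the log2 scale. Of the listed regulators 17 passed, with 4 under total counts, 5 within libraries without Y-linked counts, 0 within those with them (edgeR, 23 at an unadjusted p under 0.05, 4 libraries only), and 2 to 25 when single libraries were left out. Those 2 were reached without TG replicate 1, 3 without TG replicate 2, 9 without TG replicate 3, 10 without WT replicate 4 and 11 without TG replicate 4. The causes were not tested. DESeq2 called 20 listed regulators. All genes called numbered 2136, and 1050 under total counts (787 higher, 263 lower, against 985 and 1151), 1055 without TG replicate 2 and 1086 without TG replicate 1. A replicate block gave 2 of the 9 genes, 21 listed regulators and 2203 genes, with log2 fold changes of 0.96 for Mbnl1 and 0.40 for Rbfox2. Deviations of same-numbered libraries correlated at 0.0762, 0.0666, 0.286 and 0.231. Differently numbered libraries were not correlated, so these values cannot tell whether the numbers pair the samples. Neighbouring levels that differed numbered 6 in every leave-one-out run and 7 with the longest transcript. Comparing libraries by their Y-linked counts, 0 of the 9 genes passed in 14 alternatives.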

Other observations

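Fitted TG against WT differences of Mbnl3, Celf1, Esrp2 and Ptbp1 had opposite signs in the libraries without and with Y-linked counts, and the gap was widest for Mbnl3. Without Y-linked counts Mbnl3 had 12.2 and 14.8 CPM in TG and 8.62 and 10.5 CPM in WT, a log2 fold change of 0.49. With Y-linked counts it had 9.30 and 10.3 CPM in TG and 11.8 and 13.7 CPM in WT, a log2 fold change of -0.37. The interaction in edgeR was -0.87 ± 0.26 (SE), given as a description, since Mbnl3 is named here for this gap. The log2 fold changes without and with Y-linked counts were 0.05 and -0.20 for Celf1, -0.10 and 0.05 for Esrp2, and -0.14 and 0.01 for Ptbp1. Among all genes tested 3 passed for this interaction in edgeR, and 0 of the 9 genes did (1 at an unadjusted p under 0.05).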
